A study of Homo sapiens with 8 samples.

Results

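The epithelial keratins described here are 10 genes, KRT5, KRT6A, KRT7, KRT8, KRT17, KRT18, KRT19, KRT20, KRT80 and KRT81, taken by gene name from a table of 62649 genes. Each name matched 1 gene. Their RNA was read in AsPC-1 and in PANC-1, established human lines derived from pancreatic cancer and given as wild type in the labels, with 8 libraries in all. Each line formed spheroids over 3 days in methylcellulose medium and was then exposed for 24 hours to vehicle, 10 µM roseoflavin, 1 nM trametinib, or roseoflavin and trametinib together at those doses. Roseoflavin is an analogue of riboflavin, and trametinib inhibits the kinases MEK1 and MEK2. Every combination of line and treatment was represented by 1 library, so no group had replicates, and each line stands for 1 culture model only.

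Keratins are the intermediate filament proteins of epithelial cells. A filament is built from obligate pairs of an acidic type I chain and a basic or neutral type II chain, and a chain without its partner is degraded. KRT8 (type II) and KRT18 (type I) are the primary pair of simple epithelia, and KRT7 (type II) and KRT19 (type I) are added in ductal cells, including those of the pancreatic duct. KRT20 (type I) is typical of intestinal and gastric epithelium, KRT5 (type II) of basal cells, and KRT6A (type II) and KRT17 (type I) of activated or wounded epidermis and of basal-like tumours. KRT81 (type II) is a hair keratin, and KRT80 (type II) is a broadly expressed epithelial keratin.

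Values are TPM, a transcript abundance corrected for gene length and library total, which therefore carries no depth. Tests used limma on log2(TPM + 1), where low genes appear to change less than they do, with Benjamini-Hochberg adjustment over 19122 genes that reached 1 TPM in at least 2 libraries. Libraries of AsPC-1 had 15280 to 15580 genes at 1 TPM or more and those of PANC-1 had 17105 to 17201. Mitochondrially encoded transcripts made up 41.2% to 44.1% of AsPC-1 TPM and 22.8% to 25.6% of PANC-1 TPM, so every nuclear gene was scaled down more in AsPC-1. The epithelial marker EPCAM lay at 1224 to 1485 TPM in AsPC-1 and at 14.5 to 16.8 TPM in PANC-1, and the mesenchymal marker VIM at 660 to 816 TPM and 3132 to 3391 TPM. Of the acinar markers, 3 of 4 stayed under 1 TPM in each line, as did all 4 endocrine markers, while PTPRC, which marks leukocytes, did not exceed 0.019 TPM and CD3E was listed at 0 in every library. Other leukocyte markers were high, with CD68 at 108 to 114 TPM in AsPC-1 and 120 to 139 TPM in PANC-1 and LYZ at 1856 to 1970 TPM in AsPC-1. Of the fibroblast markers, LUM lay at 103 to 146 TPM in AsPC-1 and COL1A1 at 98.9 to 107 TPM in PANC-1. The part of these markers in the keratin differences was not tested.

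On GRCh38, 7 of the 10 genes lie in the keratin cluster of chromosome 12 and 3 in that of chromosome 17. KRT18 (ENSG00000111057, chr12:52948871-52952901, plus strand) is the only type I gene in the chromosome 12 cluster and stands head to head with KRT8 (ENSG00000170421, chr12:52897187-52949954, minus strand). In the GENCODE 29 annotation the outermost start of each gene lies inside the other, 1083 bases apart, and 525 exonic bases are shared on opposite strands, 7.63% of those of KRT8 and 16.3% of those of KRT18. The libraries were stranded, but whether counting used the strand is not given in the sources used here. KRT19 (ENSG00000171345, chr17:41523617-41528308), KRT17 (ENSG00000128422, chr17:41619441-41624842) and KRT20 (ENSG00000171431, chr17:40875941-40885227) all run on the minus strand.

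The promoters of KRT20, which reached 1 TPM only in AsPC-1, and of KRT5, which was near 0 in both lines, are shown to set a line-restricted keratin beside one that was scarcely detected. Both come from the RefSeq promoter table of GRCh38.p14, which held 3 of the 10 genes, and run 5′ to 3′ from 250 bases before to 50 bases after the transcript start, with ATAAAA, or its reverse complement, in capitals.

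KRT20 (chr17:40885193-40885492, minus strand): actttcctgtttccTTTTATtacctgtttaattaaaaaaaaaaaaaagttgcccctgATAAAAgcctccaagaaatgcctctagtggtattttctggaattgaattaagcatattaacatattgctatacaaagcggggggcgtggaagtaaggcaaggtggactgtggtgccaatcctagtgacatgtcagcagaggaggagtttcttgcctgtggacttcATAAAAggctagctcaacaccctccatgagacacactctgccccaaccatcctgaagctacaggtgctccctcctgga

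KRT5 (chr12:52520345-52520644, minus strand): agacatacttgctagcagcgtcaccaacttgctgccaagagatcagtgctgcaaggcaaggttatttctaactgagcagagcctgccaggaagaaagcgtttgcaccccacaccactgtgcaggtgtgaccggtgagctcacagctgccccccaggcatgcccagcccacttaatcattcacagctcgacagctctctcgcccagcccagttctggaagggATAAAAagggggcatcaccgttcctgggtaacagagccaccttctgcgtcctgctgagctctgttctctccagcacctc

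The letters ATAAAA, a hexamer chosen after the sequences were seen for its likeness to a TATA box, begin at position -28 from the start in KRT20 and at -29 in KRT5, and KRT20 holds further matches at -193 and, on the opposite strand, at -236. On either strand, 16.0% of the 35116 promoters of the table hold that hexamer. The canonical hexamer TATAAA, present in 11.5% of promoters, was on neither strand of these windows. The GC box GGGCGG, present in 45.0%, was likewise in neither. The AP-1 letters TGANTCA, held by 7.71% of promoters, and the caudal-type letters TTTATNG, held by 9.73%, were also missing from both strands of both windows. The start used for the KRT20 window is shared within 100 bases by 1 of 2 GENCODE transcripts of that gene, and that for KRT5 by 3 of 11. For KRT8 it is shared by 1 of 17, and its window is not shown.

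KRT18, KRT19 and KRT8 made up nearly all keratin RNA of both lines. In AsPC-1, KRT18 measured 2322, 2298, 2193 and 2526 TPM with vehicle, roseoflavin, trametinib and both compounds, and in PANC-1 it measured 916, 879, 989 and 920 TPM. The lowest AsPC-1 library therefore held more than 2 times the KRT18 of any PANC-1 library. KRT19, the smallest keratin and a duct marker, measured 2089, 1981, 2151 and 2323 TPM in AsPC-1 and 1032, 957, 1030 and 943 TPM in PANC-1. Its type II counterpart KRT8 measured 1786, 1833, 1852 and 2128 TPM in AsPC-1 and 915, 852, 990 and 892 TPM in PANC-1. For each of these genes all 4 AsPC-1 libraries lay above all 4 PANC-1 libraries.

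KRT8, KRT18 and KRT19 together gave 99.8% of the TPM of the 10 genes in AsPC-1 and 99.4% in PANC-1. The 10 genes summed to between 6124 and 6993 TPM in AsPC-1, 0.612% to 0.699% of all TPM, and to between 2705 and 3026 TPM in PANC-1, 0.271% to 0.303%. Counted over nuclear transcripts alone, the shares were 1.06% to 1.19% and 0.355% to 0.402%. In bulk RNA of this kind, fewer keratin-rich cells and less keratin RNA per cell cannot be told apart.

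**Figure D1:**
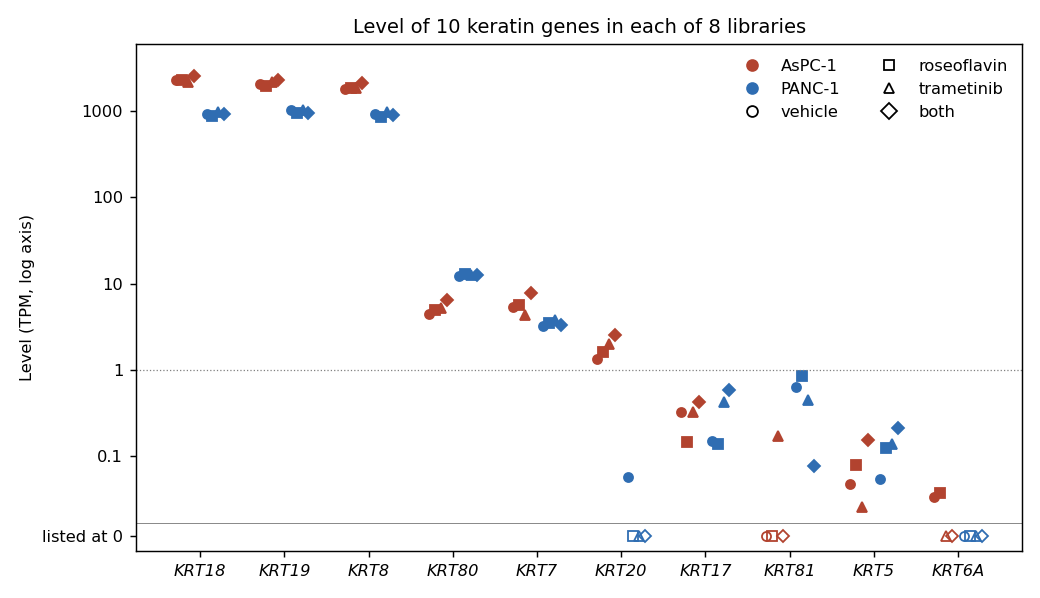
TPM of each of the 10 keratins (horizontal axis) in the 8 libraries on a log axis, with 1 point per library, colour for the line and shape for the treatment. KRT18, KRT19 and KRT8 lie between 852 and 2526 TPM, KRT80, KRT7 and AsPC-1 KRT20 between 1.34 and 12.8 TPM, and the other genes under 1 TPM.

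KRT80, KRT7 and KRT20 were far lower, at 12.8 TPM or less in every library. Among the members that passed the filter, KRT80 (ENSG00000167767, chr12:52168996-52192000, minus strand) alone had the reverse order of lines. It measured 4.42, 5.01, 5.2 and 6.48 TPM in AsPC-1 and 12.2, 12.8, 12.5 and 12.6 TPM in PANC-1. KRT7 (ENSG00000135480, chr12:52232520-52252186, plus strand), the usual ductal partner of KRT19, measured 5.39, 5.69, 4.39 and 7.74 TPM in AsPC-1 and 3.26, 3.55, 3.84 and 3.30 TPM in PANC-1. Neither gene's ranges overlapped between lines, although for KRT7 the AsPC-1 trametinib library and the PANC-1 trametinib library differed by less than the AsPC-1 libraries did among themselves.

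KRT20, the gut-type keratin, was found in AsPC-1 at 1.34, 1.62, 2.00 and 2.52 TPM. In PANC-1 it stood at 0.058 TPM with vehicle and was listed at 0 in the other 3 libraries. Of the type II chains among the 10 genes, KRT8 was the only abundant one in either line, since KRT7 and KRT80 did not exceed 12.8 TPM.

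The stress, basal and hair keratins did not pass the filter. KRT17 lay between 0.147 and 0.429 TPM with AsPC-1 and between 0.138 and 0.593 TPM with PANC-1. KRT81 (ENSG00000205426) was listed at 0 in 3 AsPC-1 libraries with 0.17 TPM in the fourth, and measured 0.635, 0.859, 0.446 and 0.077 TPM in PANC-1. KRT5 (ENSG00000186081) did not exceed 0.155 TPM in AsPC-1 or 0.215 TPM in PANC-1. KRT6A (ENSG00000205420) reached 0.038 TPM in AsPC-1 and was listed at 0 in the other 6 libraries. The ranges of all 4 genes overlapped between lines.

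The first comparison set the 4 PANC-1 libraries against the 4 AsPC-1 libraries with both compounds as additive terms. It compares these libraries of 1 line each, and its p-values measure the spread left between them after the compound terms, which is not a spread between replicate cultures. KRT20 passed the filter through AsPC-1 alone, which fixed its direction, so it is described and not counted. The other 5 keratins tested reached 1 TPM in at least 2 libraries of each line, and all 5 differed, with KRT7, KRT8, KRT18 and KRT19 lower in PANC-1 and KRT80 higher. Among the 14120 genes that passed in both lines, 19.5% were called lower and 63.5% higher in PANC-1. Over all genes tested 21.5% were called lower and 62.3% higher, together 83.8% (84.5% at an unadjusted p under 0.05), so a call as such was the common outcome. Ranges of TPM that did not overlap were also common, with 19.8% of genes higher in AsPC-1 and 59.4% higher in PANC-1.

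KRT18 had the largest difference of the abundant keratins, at -1.33 on the log2 scale (PANC-1 minus AsPC-1, SE 0.0575, limma adjusted p = 1.13e-06). KRT19 differed by -1.11 (SE 0.0569, limma adjusted p = 2.65e-06) and KRT8 by -1.06 (SE 0.0628, limma adjusted p = 5.44e-06). These values placed KRT18 at percentile 8 of the line differences of all genes tested, KRT19 at 9.8 and KRT8 at 10.2, where the median gene was 0.55 higher in PANC-1.

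KRT20 stood at -1.48, given as a description, and at -4.10 with a pseudocount of 0.1 in place of 1. KRT7 had the smallest difference, -0.58 (SE 0.135, limma adjusted p = 0.00609). KRT80 was 1.12 higher in PANC-1 (SE 0.0739, limma adjusted p = 9.34e-06), at percentile 72.6.

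Scaling moved the sizes of these differences without turning a direction. Quantile normalization brought the median of all genes to 0.04, with KRT18 at -1.52, KRT19 at -1.28, KRT8 at -1.19, KRT20 at -1.78, KRT7 at -1.14 and KRT80 at 0.58. Rescaling without mitochondrial transcripts gave a median of 0.22, with KRT18 at -1.72, KRT19 at -1.5, KRT8 at -1.45, KRT20 at -2.03, KRT7 at -0.96 and KRT80 at 0.80. KRT7, KRT8, KRT18, KRT19 and KRT80 were called under both, while the split of all calls moved from 11917 higher and 4110 lower to 7963 and 7177 under quantile normalization and to 9814 and 6298 without mitochondrial transcripts.

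**Figure D2:**
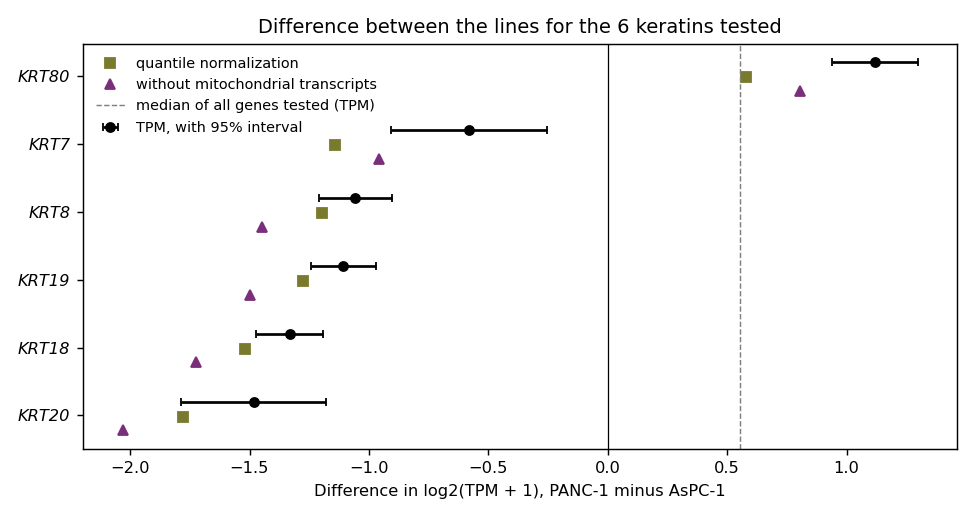
Difference in log2(TPM + 1) between the lines, PANC-1 minus AsPC-1, for the 6 keratins tested, with points for the 3 scalings, bars for the 95% confidence interval from limma on TPM and a dashed line for the median of all genes on TPM. KRT80 lies above 0 and the other 5 below 0 under each scaling, where KRT20 passed the filter through AsPC-1 alone.

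Balance between the keratin RNAs also differed by line. In TPM, KRT18 exceeded KRT19, and KRT19 exceeded KRT8, in all 4 AsPC-1 libraries, whereas KRT19 was the highest keratin in 4 of 4 PANC-1 libraries. The order of genes within a library depends on the gene lengths used for TPM, which are not given in the sources used here. KRT18 was 1.18 to 1.30 times KRT8 in AsPC-1 (mean 1.23) and 0.999 to 1.03 times KRT8 in PANC-1 (mean 1.02), ranges that did not overlap (exact two-sided permutation test, p = 0.0286, adjusted over 3 ratios 0.0429). The ratio of KRT18 to KRT19 was 1.02 to 1.16 in AsPC-1 and 0.888 to 0.976 in PANC-1 (exact two-sided permutation test, p = 0.0286, adjusted 0.0429). For KRT19 to KRT8 the ranges of 1.08 to 1.17 and 1.04 to 1.13 overlapped (exact permutation test, p = 0.286). With 4 libraries against 4 the smallest p this test can give is 0.0286. The test moved libraries freely between lines and did not keep the matching by treatment. The 4 libraries of a line differ in treatment and are not replicates, so these p-values do not measure a spread between cultures.

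Summed over the 10 genes, the ratio of type I TPM to type II TPM was 2.46, 2.32, 2.33 and 2.26 in AsPC-1 with vehicle, roseoflavin, trametinib and both. In PANC-1 it was 2.09, 2.11, 2.01 and 2.05. All keratin genes of the table gave medians of 2.36 and 2.11, against 2.33 and 2.07 for the 10 genes. The 10 genes held 98.6% to 99.0% of all keratin TPM across the 8 libraries.

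**Figure D3:**
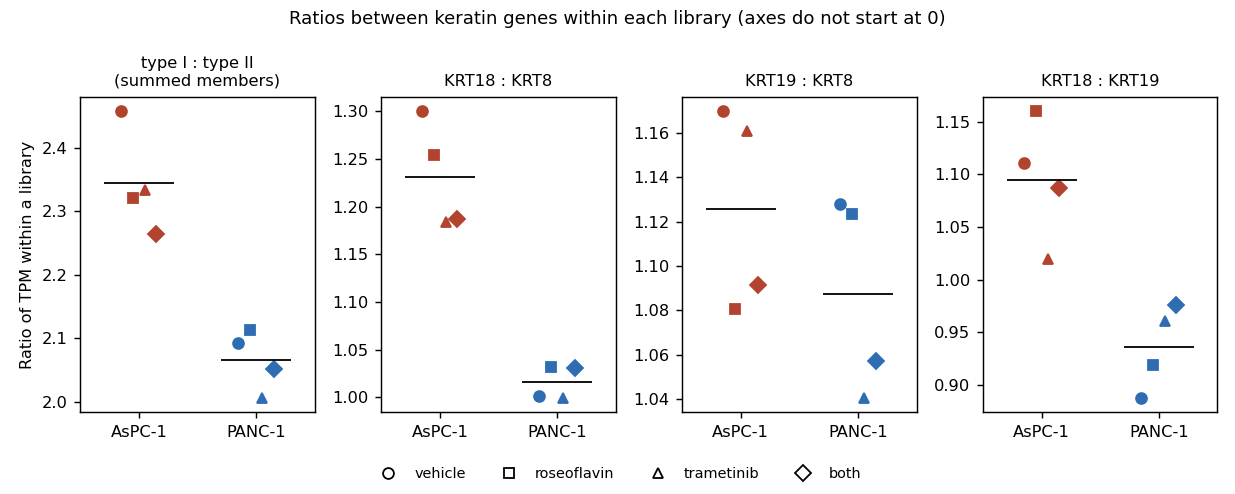
Ratios of TPM within each library (vertical axes) by line, with 1 point per library, shape for the treatment and a horizontal line for the mean of a line's 4 libraries, for the 3 pairs of abundant keratins and for the sum of type I over the sum of type II genes. KRT18 to KRT8 is 1.18 to 1.30 in AsPC-1 and 0.999 to 1.03 in PANC-1.

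Trametinib was compared over both lines as 4 libraries with against 4 without it. None of the 6 tested keratins of the 10 genes was called by limma, and none had an unadjusted p under 0.05. Of the keratins outside the 10 genes, KRT16 was 0.34 higher (limma unadjusted p = 0.0212, adjusted 0.861). Among all 19122 genes 0 were called (0%), and 938 (4.91%) had an unadjusted p under 0.05. DUSP6, a phosphatase gene induced by ERK signalling, measured 193, 176, 155 and 136 TPM in AsPC-1 and 18.6, 17.5, 14 and 12.5 TPM in PANC-1 in the same order of treatments. It was lower with trametinib in each matched pair of libraries, by -0.38 in the fit (SE 0.0360, limma unadjusted p = 2.95e-05, adjusted 0.564).

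All 6 keratin estimates for trametinib were above 0, where the median of all genes was 0.018. The shared sign rested in part on the AsPC-1 library with both compounds. Without it KRT19 stood at 0.0028, KRT18 at 0.016, KRT8 at 0.056, KRT80 at 0.062, KRT20 at 0.083 and KRT7 at -0.073. With all 8 libraries the estimates were as follows. KRT8 stood at 0.11 with a 95% interval of -0.0399 to 0.264 and the smallest unadjusted p of these 6 keratins, 0.123 by limma (adjusted 0.861). KRT18 and KRT19 both stood at 0.06, with intervals of -0.0817 to 0.196 and -0.0758 to 0.199. The intervals of KRT80 at 0.13 (-0.0486 to 0.309), KRT20 at 0.18 (-0.130 to 0.480) and KRT7 at 0.06 (-0.266 to 0.388) were wider. These intervals concern an effect shared by both lines, come from unreplicated libraries and set no limit for a single line. Within a line they reached 0.289 for KRT8 and 0.303 for KRT19 in AsPC-1 and 0.275 for KRT18 in PANC-1. The lowest bound of these 3 genes was -0.179, for KRT19 in PANC-1.

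Roseoflavin gave no called keratin either, and limma called 0 of all genes (0%), with 1358 (7.1%) at an unadjusted p under 0.05 and no keratin among them. KRT8 differed by -0.0037 (95% interval -0.156 to 0.148), KRT18 by 0.0062 (-0.133 to 0.145) and KRT19 by -0.05 (-0.188 to 0.0869). KRT80 stood at 0.12 (-0.0542 to 0.303), KRT20 at 0.08 (-0.228 to 0.383) and KRT7 at 0.17 (-0.155 to 0.498).

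Within each line limma called no keratin for either compound, and 0 genes in all. With trametinib in AsPC-1, KRT20 was 0.39 higher (SE 0.107, limma unadjusted p = 0.0225, adjusted 0.311) and KRT80 0.26 higher (SE 0.0597, limma unadjusted p = 0.0137, adjusted 0.296), where 14.1% of all genes had an unadjusted p under 0.05. PANC-1 gave trametinib estimates of -0.04 for KRT20, 0.0048 for KRT80 and 0.09 for KRT8, with no keratin among the 4.81% of genes at an unadjusted p under 0.05. With roseoflavin, KRT80 was 0.21 higher in AsPC-1 (limma unadjusted p = 0.0255, adjusted 0.399), where 11.3% of genes had an unadjusted p under 0.05. KRT8 stood at 0.12 in AsPC-1 and -0.13 in PANC-1, where no keratin was among the 10.8% of genes with an unadjusted p under 0.05. Keratins outside the 10 genes also reached that level in AsPC-1 by limma. With trametinib these were KRT16 at 0.51 (unadjusted p = 0.0180) and KRT15 at 0.15 (unadjusted p = 0.0498). With roseoflavin they were KRT23 at 0.45 (unadjusted p = 0.00575) and KRT10 at 0.25 (unadjusted p = 0.00648).

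Whether response differed by line was tested itself. For trametinib, PANC-1 minus AsPC-1, limma called 0 genes with 1854 (9.7%) at an unadjusted p under 0.05, among them KRT20, at or near 0 in PANC-1, at -0.43 (SE 0.151, adjusted p = 0.514) and KRT80 at -0.25 (SE 0.0844, adjusted p = 0.514). For roseoflavin, limma called 0 genes with 2227 (11.6%) at an unadjusted p under 0.05, among them KRT8 at -0.25 (SE 0.0781, adjusted p = 0.403). The 6 tested keratins all stood below 0, from -0.14 (KRT19) to -0.42 (KRT7), where the median of all genes was 0.036. All were above 0 in AsPC-1 and all but KRT80 below 0 in PANC-1, which the estimates over both lines average. Under quantile normalization KRT18 (-0.27), KRT19 (-0.22) and KRT80 (-0.23) also reached an unadjusted p under 0.05 by limma, with 0 genes called. Departure of the combination from the sum of the compounds was called for 0 genes by limma, with 536 (2.8%) at an unadjusted p under 0.05 and no keratin among them.

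The AsPC-1 library with both compounds was the highest of that line for all 6 keratins tested, on the scale of all transcripts and without mitochondrial ones. Of all genes tested, 23.4% were highest in that library, 32.6% with vehicle, 31% with trametinib and 13% with roseoflavin. From vehicle to both compounds in AsPC-1, KRT8 went from 1786 to 2128 TPM (19.2%), KRT19 from 2089 to 2323 TPM (11.2%) and KRT18 from 2322 to 2526 TPM (8.79%). The low keratins moved further in relative terms, KRT7 by 43.7%, KRT80 by 46.7% and KRT20 by 87.6%. These are differences between 1 library and 1 library with no replicate check.

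In PANC-1 the same step gave -2.50% for KRT8, 0.397% for KRT18 and -8.65% for KRT19. None of the 6 keratins tested was highest in the PANC-1 library with both compounds, where 29.3% of all genes were. Of the 6 keratins, 3 were highest with trametinib (26.5% of all genes), 2 with vehicle (24%, ties included) and 1 with roseoflavin (20.1%). Of the 2 with vehicle, KRT20 stood at 0.058 TPM there and at 0 in the other PANC-1 libraries, a floor value that gives no order. The AsPC-1 order was not repeated by the other keratins.

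**Figure D4:**
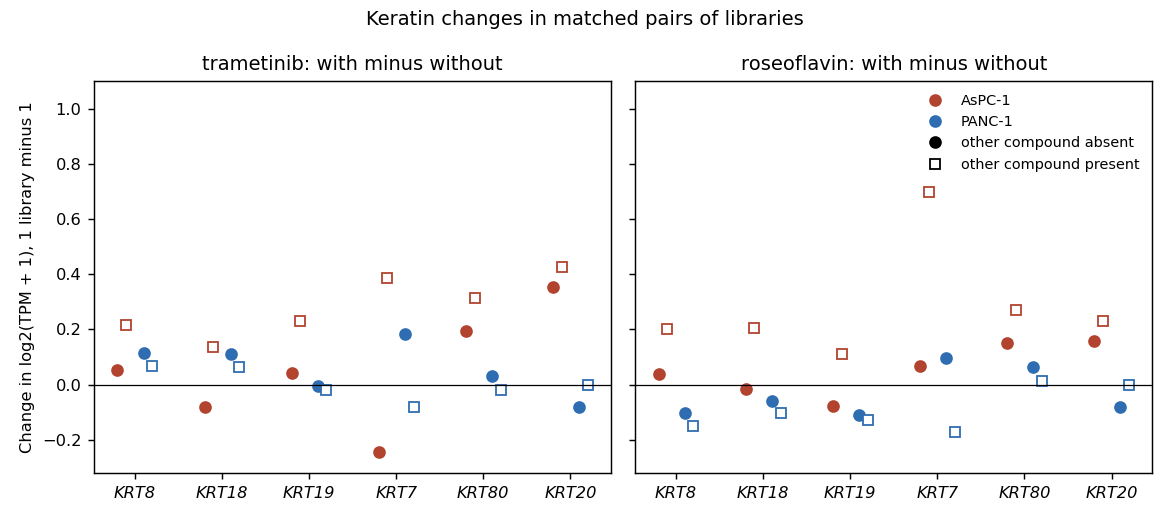
Change in log2(TPM + 1) of the 6 keratins between matched pairs of libraries, for trametinib (left) and roseoflavin (right), with colour for the line, filled points without and open squares with the other compound, and 1 library minus 1 library at each point. Open red squares, the AsPC-1 changes ending in the library with both compounds, all lie above 0. This follows from that 1 library, shared by both panels, being the highest of its line for all 6 keratins.

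KRT8 and KRT18 have many processed pseudogenes, and reads from near-identical copies could be split among them. The table named 51 KRT8 pseudogenes, 5 of them averaging 1 TPM or more, and 67 KRT18 pseudogenes, of which 0 did. The pseudogene KRT8P3 measured 42.2, 43.3, 41.0 and 48.3 TPM in AsPC-1 and 44.9, 39.9, 48.7 and 43.2 TPM in PANC-1, a line difference of 0.016 (SE 0.0728, limma adjusted p = 0.851), where KRT8 differed by -1.06. Summed KRT8 pseudogenes equalled 2.91% to 3.12% of the KRT8 level in AsPC-1 and 6.68% to 6.98% in PANC-1.

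In the GENCODE 29 transcripts, 10.1% of the 50-base windows of KRT8 and 14.3% of those of KRT18 also occurred in another gene, falling to 1.60% and 0% at 100 bases. For KRT19, KRT7, KRT80 and KRT20 the share at 50 bases was 0.977% or less. The share was largest for KRT81 with 43.7%, mainly with KRT86, and for KRT6A with 32.1%, mainly with KRT6C, so the low values of those hair and stress keratins are uncertain. The length of the reads is not given in the sources used here.

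Among 44 other keratin genes, 5 passed the filter. KRT23 and KRT16 passed through AsPC-1 alone and KRT32 through PANC-1 alone, so the direction of these 3 genes was fixed by the filter and their levels are a description. KRT23, a type I keratin, measured 34.8, 44.0, 34.9 and 52.1 TPM in AsPC-1 and was listed at 0 in all PANC-1 libraries, which made it the fourth most abundant keratin of AsPC-1. KRT16, a stress keratin that pairs with KRT6A, lay at 1.76 to 3.44 TPM with AsPC-1 and 0.293 to 0.637 TPM with PANC-1. KRT32, a hair keratin, was listed at 0 in AsPC-1 and lay at 0.665 to 1.11 TPM with PANC-1. The other two, KRT10 and KRT15, were both called higher in PANC-1 by limma, as were 63.5% of genes past the filter in both lines. Neither call held under each scaling. KRT10, a keratin of differentiating epidermis, stood at 0.27 (adjusted p = 0.00537), but under quantile normalization at -0.26, a call in the opposite direction (limma adjusted p = 0.00969), and at -0.10 without mitochondrial transcripts (limma adjusted p = 0.248). KRT15, a basal keratin, stood at 0.65 (limma adjusted p = 4.30e-05), at 0.12 under quantile normalization (limma adjusted p = 0.106) and at 0.29 without mitochondrial transcripts (limma adjusted p = 0.00451).

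Desmosomes are the junctions that anchor keratin filaments. Of 13 desmosome genes, 10 passed the filter, 4 of them through AsPC-1 alone. Of the 6 that passed in both lines, 5 were called lower and 1 higher in PANC-1, with a median difference of -1.78 against 0.50 for all genes past the filter in both lines, where 19.5% were called lower. The desmosomal cadherin DSG3 lay at 29.8 to 35.7 TPM in AsPC-1 and was listed at 0 in all PANC-1 libraries. Its relative DSG2 differed by -3.60, and the plaque protein PKP2 lay at 13.9 to 16.8 TPM in AsPC-1 and 0.335 to 0.520 TPM in PANC-1. PERP was the 1 gene called higher, a call that was lost without mitochondrial transcripts.

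Plakins and hemidesmosome genes, which link keratins to the membrane and the basement membrane, were split. Of the 8 that passed the filter in both lines, 4 were called lower and 4 higher in PANC-1, with a median of -0.043. COL17A1, the transmembrane collagen of hemidesmosomes, lay at 426 to 472 TPM in AsPC-1 and 0.103 to 0.143 TPM in PANC-1, and so passed through AsPC-1 alone. The integrin chain ITGB4 differed by -3.17, whereas periplakin (PPL) differed by 2.86. The calls as higher stayed at 4 under quantile normalization and fell to 3 without mitochondrial transcripts. With COL17A1 included, the median of the 9 genes tested moved from -0.65 to -1.08 and -1.04 under these scalings. Of 7 keratin-binding partners and regulators, all past the filter in both lines, 4 were called higher and 3 lower, where 63.5% of all such genes were called higher and 19.5% lower. The split became 2 higher and 4 lower under quantile normalization and 3 and 4 without mitochondrial transcripts, and the median of 0.19 became -0.24 and -0.19. FBF1 (2.09), FAM83H (-1.10) and the chaperone DNAJB6 (1.01) differed most.

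Of 13 other intermediate filament genes, 7 passed the filter, 2 of them through PANC-1 alone. The 5 that passed in both lines were all called higher in PANC-1, the direction called for 63.5% of such genes, with a median of 0.93 against 0.50. Nestin (NES) differed by 5.91 and vimentin (VIM) by 2.14, while synemin (SYNM) lay under 1 TPM in AsPC-1 and at 57.2 to 66.1 TPM in PANC-1. Of 14 epithelial transcription factor genes, 7 passed in both lines, 5 of them called lower and 1 higher in PANC-1, with a median of -2.73. KLF5 differed by -6.53, and EHF and HNF4A, at 86.1 to 95.7 TPM and 35.2 to 39.4 TPM in AsPC-1, lay under 1 TPM in every PANC-1 library. With either compound limma called 0 genes of any of these lists. Over both lines the counts at an unadjusted p under 0.05 were at most 2 per list for trametinib and 1 for roseoflavin. Within AsPC-1 they reached 3 of 10 desmosome genes and 3 of 12 epithelial transcription factors for trametinib, where 14.1% of all genes did. For roseoflavin in AsPC-1 they were at most 2 per list, where 11.3% of all genes did.

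**Figure D5:**
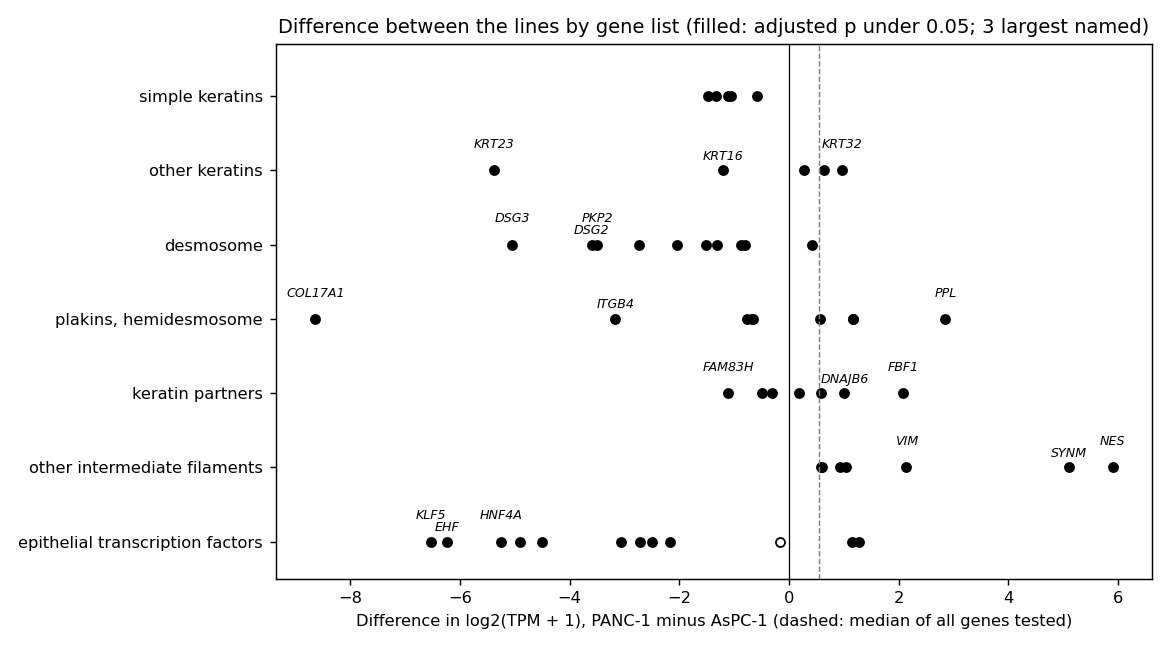
Line differences in log2(TPM + 1), PANC-1 minus AsPC-1, for the genes of each list that passed the filter, with filled points for limma adjusted p under 0.05, names for the 3 largest of each list but the first, and a dashed line at the median of all genes, 0.55. Simple keratins lie left of 0 and other intermediate filament genes right of it, and the plot includes genes that passed the filter through 1 line alone, such as KRT20, KRT23, DSG3, COL17A1, SYNM and HNF4A.

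Likeness of pattern was described by Pearson's correlation over the 8 libraries after the mean of each line was subtracted, among named genes averaging 10 TPM or more. These libraries share their line and compounds, and the values are descriptions. KRT19 was most like HS6ST1 (0.990), KRT15 (0.976) and PITRM1 (0.975), and its correlation with KRT8 was 0.81 and with KRT18 0.62. KRT15, a type I keratin of basal cells, lies 1087 bases from KRT19 in the chromosome 17 cluster, at 9.40 to 11 TPM in AsPC-1 and 15.7 to 17.4 TPM in PANC-1. KRT8 was most like DNAJB12 (0.995), NDUFA9 (0.984) and R3HDM1 (0.978), and its correlation with its partner KRT18 was 0.88, rank 47 among 8629 genes.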

How the data were processed

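Polyadenylated RNA libraries were made with a stranded TruSeq mRNA kit, per the labels' protocols, 1 for each line and treatment. The authors deposited one table whose 8 value columns, per the file headers, hold TPM for every gene. The submitters' processing notes name STAR 2.7.3a, HTSeq 2.0.2 and hg38, with no role or order, and the annotation is not given in the sources used here. The table held 62649 genes after 985926 blank rows were dropped. TPM keep no depth, so no counting interval could be given.

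Genes with at least 1 TPM in at least 2 libraries were fitted on log2(TPM + 1) with limma 3.58.1 (R 4.3.3), using lmFit and then eBayes with trend, with a Benjamini-Hochberg threshold of 0.05 over all genes. Line and both main effects came from an additive fit with 4 residual degrees of freedom, responses by line from a fit with line-by-compound terms (2 left), and the combination from a fit with a compound-by-compound term (3 left). The code was tested on simulated data. Exact permutation tests compared ratios of keratins, without keeping libraries matched by treatment. The 10 members, all named, and the gene lists were chosen with earlier results of these data known. From each other list, up to 3 called genes with the largest line difference are named, besides PERP and the other keratins that passed the filter. For the compounds, where none was called, only DUSP6 and some of the other keratins are named. The planned naming of 1 gene per list where none was called was not carried out. Alternatives were quantile normalization, removal of mitochondrial transcripts, no filter, a mean of at least 10 TPM, a pseudocount of 0.1, no term for the line, and leaving out each library. Positions and shared windows came from GENCODE 29 on GRCh38, the same build as hg38.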

Additional observations from a re-analysis of the deposited data

How the results depend on the processing

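Across 24 keratin results (6 counts of called keratins and 18 single changes) and 317 alternative values, 306 kept their direction and side of the threshold, 10 reversed and 1 count was smaller. That count was of keratins called between lines, 3 with a mean of at least 10 TPM against 6 (KRT20, whose direction the filter fixed, included), because only KRT8, KRT18 and KRT19 were then tested. It stayed at 6 without each library in turn. The counts for compounds and interactions stayed at 0 under every alternative. Because 0 of all genes were called for them, except for interactions without the filter, these counts could not have differed and say nothing particular about keratins. They are nevertheless included in the 306. All reversals were of compound estimates near 0 that passed no test: without 1 library, KRT7 with trametinib ranged from -0.073 to 0.19, and with roseoflavin KRT8 ranged from -0.060 to 0.038, KRT18 from -0.051 to 0.042 and KRT20 from -0.015 to 0.17. KRT20 with roseoflavin was -0.022 with a pseudocount of 0.1. The causes were not tested. Over all genes, leaving out the filter turned 0 calls into 106 for line by trametinib, 27 for line by roseoflavin and 14 for the compound interaction, none of them a member. The labels carry no replicate numbers to block on, but treatments are crossed with lines and were matched through the terms of the fit. Without the term for the line, the compounds again called 0 keratins and 0 of all genes, with the line difference left in the residual spread. With TPM alone, depth is unknown, which limits KRT5, KRT6A, KRT17 and KRT81 most.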
